A study of Mus musculus with 8 samples.

Results

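Genes of the hypoxia response and of glycolysis were followed in yolk sac tissue of mouse embryos at E9.5 in which Notch signaling had been altered in the endothelium. The list held 34 genes chosen by symbol, 16 glycolytic enzymes and their regulators and 18 other genes of the hypoxia response. It was chosen with earlier results of these data known, so shares and medians over the list are descriptions and not independent tests. Probe sets that name a single gene were found for 31 of the 34, out of 18194 genes in all, and 29 of the 31 passed the filter on dim signals, which kept 10913 genes. Aldoc and Car9 lay below the filter, Bnip3l was measured only by probe sets that also name the pseudogene Bnip3l-ps, and Gpi1 and Eno1 were not analysed here. Where several probe sets named a gene, the brightest over the 8 arrays stood for it.

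The embryos fell into 4 groups of 2 arrays. EC-N1ICD embryos carried the Tie2-Cre transgene and, at the Rosa26 locus, a copy of the Notch1 intracellular domain that Cre switches on (Tie2 Tg/0; ROSA +/N1ICD, strain C57BL6), and their wild type group lacked both (Tie2 0/0; ROSA +/+). EC-Rbpj-KO embryos carried Tie2-Cre and 2 floxed copies of Rbpj (Tie2-Cre; Rbpj flox/flox, mixed strain), and the sample descriptions call the other arrays of that set wild type without giving a genotype. Tie2-Cre acts in endothelial and blood cells, whereas the RNA came from whole yolk sac, which also holds visceral endoderm and mesenchyme. Every value is therefore that of a tissue, in which fewer cells of a type cannot be told apart from less RNA per cell. No label states in words that each array held the RNA of a separate embryo, so the spread behind each p-value may be partly technical.

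When oxygen is plentiful, the prolyl hydroxylases encoded by Egln genes mark the alpha subunits of the transcription factor HIF, and the ubiquitin ligase subunit VHL then has them destroyed. When oxygen falls the subunits persist and HIF switches on genes whose products raise glucose use through glycolysis, hold pyruvate back from the mitochondria, modify collagen, remove mitochondria and restrain growth. Much of this control acts on protein, so Hif1a mRNA need not move with HIF activity. HIF binds DNA at a short core of letters, ACGTG or GCGTG, and RBPJ, the factor through which activated Notch acts on DNA, at GTGGGAA.

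The 250 bases before the annotated start are shown for 4 of the 5 genes of the list that changed in EC-Rbpj-KO yolk sac, so that the letters of the HIF core can be read beside the measurements. Capitals mark ACGTG or GCGTG on either strand. The stretches come from RefSeq on build GRCm38.p6, each read along the gene's own minus strand: Ppp1r3c from chr19:36736605-36736854, Ddit4 from chr10:59951771-59952020, Pfkfb3 from chr2:11553930-11554179 (the outer of its 2 starts) and Pfkp from chr13:6648772-6649021.
Ppp1r3c: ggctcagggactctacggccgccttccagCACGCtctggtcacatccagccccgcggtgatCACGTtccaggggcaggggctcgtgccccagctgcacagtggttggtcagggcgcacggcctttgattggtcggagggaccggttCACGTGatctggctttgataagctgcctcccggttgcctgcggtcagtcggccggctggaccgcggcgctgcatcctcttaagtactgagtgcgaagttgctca
Ddit4: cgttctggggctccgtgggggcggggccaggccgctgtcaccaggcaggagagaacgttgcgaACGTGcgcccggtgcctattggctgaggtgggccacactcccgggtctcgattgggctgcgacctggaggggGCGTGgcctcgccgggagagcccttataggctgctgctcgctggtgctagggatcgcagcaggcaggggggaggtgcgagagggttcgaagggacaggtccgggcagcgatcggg
Pfkfb3: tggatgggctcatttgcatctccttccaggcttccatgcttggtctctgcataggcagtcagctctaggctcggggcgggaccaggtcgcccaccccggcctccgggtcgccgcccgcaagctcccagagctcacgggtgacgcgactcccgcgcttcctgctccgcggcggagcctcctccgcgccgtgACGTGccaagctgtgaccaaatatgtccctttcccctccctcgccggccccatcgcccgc
Pfkp: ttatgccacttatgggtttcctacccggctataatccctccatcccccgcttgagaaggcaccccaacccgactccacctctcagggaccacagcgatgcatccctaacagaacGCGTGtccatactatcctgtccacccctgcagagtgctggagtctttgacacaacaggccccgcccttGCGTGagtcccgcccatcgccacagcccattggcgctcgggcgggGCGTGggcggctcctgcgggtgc
The stretch of Ppp1r3c held 4 matches, of which 2 overlap as the palindrome CACGTG, which is also the core of other factors. Ddit4 held 2 matches, Pfkfb3 held 1 and Pfkp held 3, and those of Pfkp were all of the GCGTG form. Of the listed genes, 32 were in the promoter table, Ndrg1 not among them, and 38 of their 50 stretches (76%) held at least 1 match, against 38.6% of all 32851 stretches of the same length. ACGTG alone was in 48% of the listed genes' stretches and in 16.6% of all, and GTGGGAA in 2% and 5.42%. The genes were listed as hypoxia and glycolysis genes, and a match of letters is a description and not a measured site.

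The arrays gave 1 signal per probe set, a linear intensity whose median over an array lay between 38 and 51. Log2 signals of the 2 arrays of a group correlated with Pearson's r of 0.986 to 0.990 across all probe sets, which are not independent replicates. Rbpj read 470 and 497 in EC-Rbpj-KO and 984 and 919 in its wild type (log2 fold change -0.98, adjusted p = 0.00866, limma with Benjamini-Hochberg adjustment). Hey1, a direct Notch target, had 319 and 298 in EC-N1ICD and 147 and 103 in its wild type (log2 fold change 1.33, adjusted p = 0.0364). The marker lists passed the filter for 11 of 11 visceral endoderm, 10 of 11 erythroid and 8 of 10 endothelial genes, Pecam1 not among the last. Xist was high (2005 to 3730) on 3 arrays, those of EC-N1ICD and replicate 1 of EC-Rbpj-KO, and low on the other 5 (77 to 96), so embryo sex and genotype cannot be told apart in the EC-N1ICD set.

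In EC-Rbpj-KO yolk sac, 5 of the 29 tested genes changed, or 17.2%, where 4.96% of all 10913 genes did. The 4 that rose were Ppp1r3c, Ddit4, Ndrg1 and Pfkfb3, and the 1 that fell was Pfkp. Genes of the hypoxia response outside glycolysis accounted for 3 of the rises, out of 16 tested, and none of these 16 fell. Among the 13 glycolysis genes, 1 rose and 1 fell. Over all tested genes 2% rose and 2.96% fell.

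**Figure D1:**
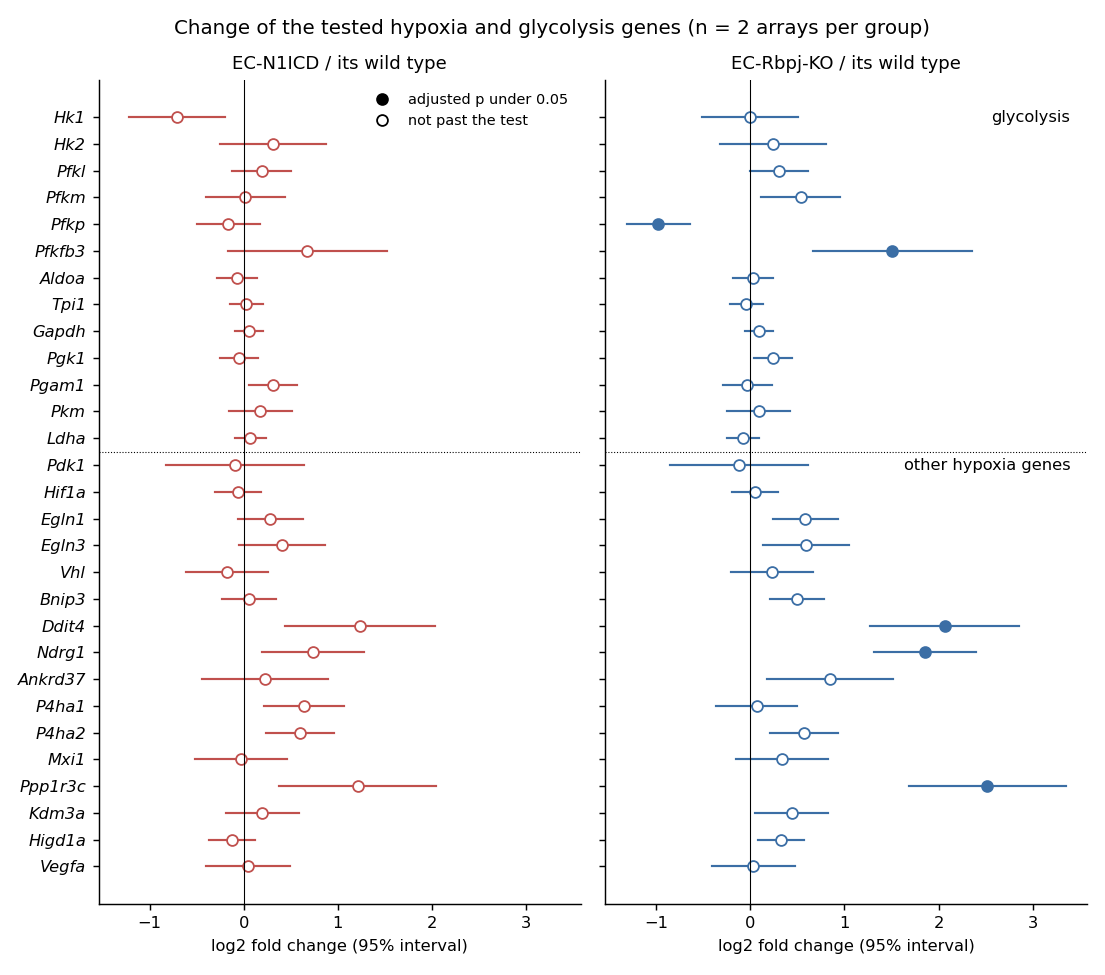
Log2 fold change of each tested gene (circle) with its 95% interval (line) in EC-N1ICD (left) and EC-Rbpj-KO (right), each against the wild type of its own set, 2 arrays per group. Filled circles passed an adjusted p of 0.05, as 5 genes did for EC-Rbpj-KO and 0 for EC-N1ICD, and the dotted line parts the glycolysis genes from the other hypoxia genes.

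Ppp1r3c encodes a subunit that brings a protein phosphatase to glycogen and so favours glycogen synthesis. Its signals were 379 and 212 in EC-Rbpj-KO and 49 and 50 in wild type. Both mutant arrays lay far above both wild type arrays, a 5.73-fold difference (log2 fold change 2.52, standard error 0.38, 95% interval 1.69 to 3.35, adjusted p = 0.00391). A second Ppp1r3c probe set read 22 and 17 in EC-Rbpj-KO and 19 and 17 in wild type, below the median of these arrays, and with both probe sets averaged the log2 fold change was 1.31 and still passed the test.

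Ddit4, an inhibitor of mTOR signaling that slows growth under stress, read 523 and 685 in EC-Rbpj-KO and 112 and 183 in wild type. The groups did not overlap, and the mean was 4.18-fold higher in the mutant (log2 fold change 2.06, standard error 0.36, adjusted p = 0.00881). Only 1 probe set named Ddit4. Without wild type replicate 1, the lower of the wild type arrays for this gene, the log2 fold change was 1.71 and no longer passed (adjusted p = 0.0686).

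Ndrg1, a gene induced by stress and differentiation as well as by low oxygen, had the smallest adjusted p of the list. It read 2175 and 1377 in EC-Rbpj-KO and 475 and 483 in wild type, 3.61-fold higher (log2 fold change 1.85, standard error 0.25, adjusted p = 0.00230). All 5 of its probe sets were higher on both mutant arrays than on both wild type arrays, with log2 fold changes of 1.08 to 2.19. The pair of mutant arrays did not always keep their order, since replicate 1 was the higher on 3 of the probe sets and replicate 2 on the other 2.

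**Figure D2:**
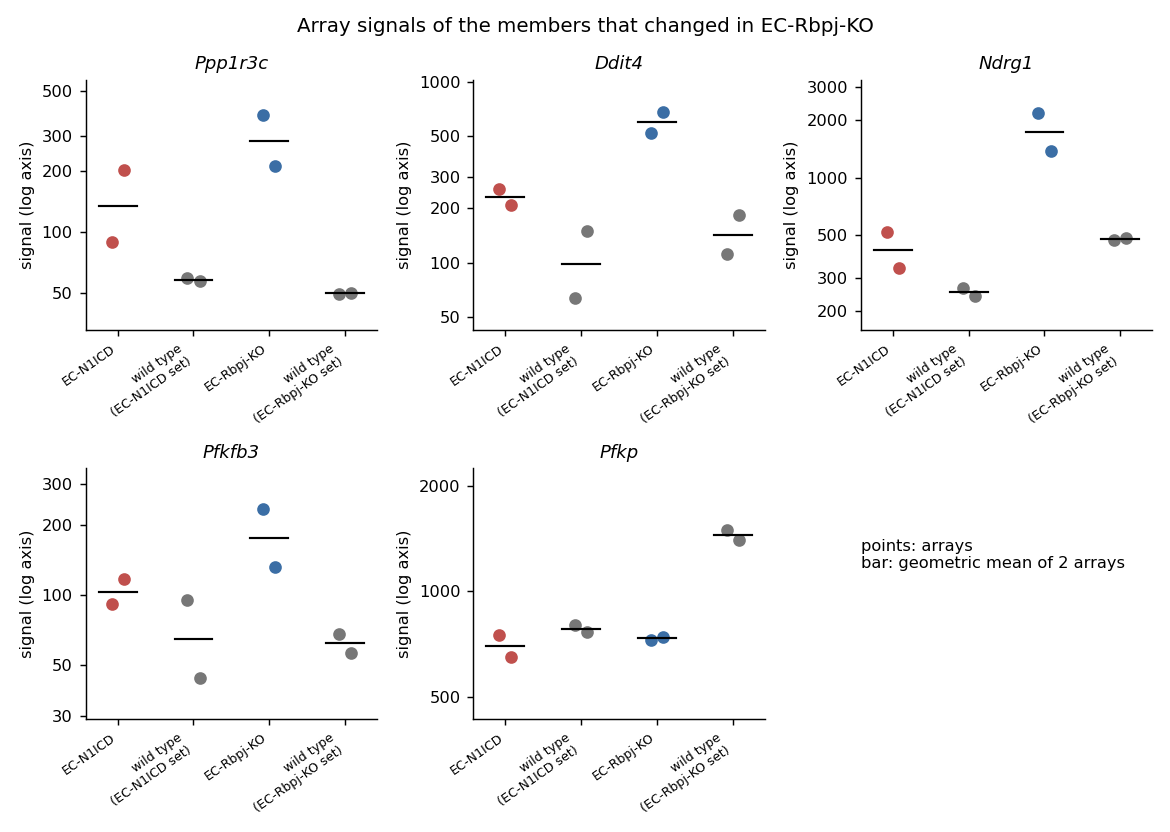
Signals on a log axis of the 5 genes that changed in EC-Rbpj-KO, for EC-N1ICD, its wild type, EC-Rbpj-KO and its wild type (points are arrays, bars the geometric mean of 2). The EC-Rbpj-KO points lie apart from those of their wild type in every panel, above them for Ppp1r3c, Ddit4, Ndrg1 and Pfkfb3 and below them for Pfkp.

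Pfkfb3 makes the sugar phosphate that activates phosphofructokinase, the enzyme of the committed step of glycolysis. Its signals were 233 and 132 in EC-Rbpj-KO and 68 and 56 in wild type, without overlap. The difference of 2.84-fold passed the test narrowly (log2 fold change 1.51, standard error 0.39, adjusted p = 0.0473), and it was called under 5 of the 17 alternatives in which it was tested. It was lost without either wild type array of its set (adjusted p = 0.118 and 0.244), without EC-Rbpj-KO replicate 1 (0.172) and without either EC-N1ICD array, which share the estimate of spread (0.0644 and 0.0647). Its dimmer probe set read 33 and 52 in EC-Rbpj-KO and 30 and 25 in wild type (log2 fold change 0.60).

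Phosphofructokinase itself is built from subunits of liver, muscle and platelet type, encoded by Pfkl, Pfkm and Pfkp, and 1 of the 3 genes changed. Pfkp read 728 and 743 in EC-Rbpj-KO and 1492 and 1397 in wild type. This was 0.509 of the wild type level with little spread in either group (log2 fold change -0.97, standard error 0.15, adjusted p = 0.00496). Its other 2 probe sets, which were dim (26 to 78), also lay lower without overlap, at log2 fold changes of -0.58 and -1.10. Pfkm read 731 and 685 in EC-Rbpj-KO and 578 and 412 in wild type (log2 fold change 0.54, adjusted p = 0.145). Pfkl read 4229 and 4501 in EC-Rbpj-KO and 3747 and 3319 in wild type (log2 fold change 0.31, adjusted p = 0.259). Both were higher on both mutant arrays without passing the test.

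The wild type arrays of the sets read differently for Pfkp. In the EC-N1ICD set Pfkp read 749 and 651 in the mutant and 800 and 763 in wild type, near the EC-Rbpj-KO values, and the sets differ in strain, so strain and set cannot be told apart. Without wild type replicate 1 of the EC-Rbpj-KO set the log2 fold change was -0.93 and the adjusted p of Pfkp 0.0564.

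**Figure D3:**
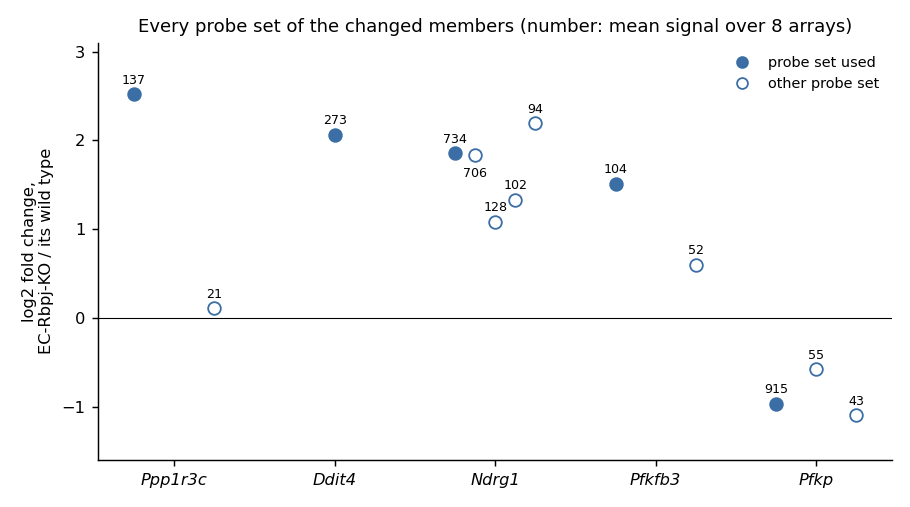
Log2 fold change in EC-Rbpj-KO against its wild type for every probe set that names one of the 5 changed genes alone, with its mean signal over the 8 arrays printed beside it. Filled circles are the probe sets used. The 5 Ndrg1 probe sets all lie above 0 and the 3 Pfkp probe sets all below it, while the second Ppp1r3c probe set, at a mean signal of 21, lies at 0.11.

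The enzymes of the remaining steps had log2 fold changes between -0.08 and 0.24 in EC-Rbpj-KO. Gapdh, which reduces NAD in the middle of the pathway and was the reference gene for real-time PCR in the study, read 19916 and 21527 in EC-Rbpj-KO and 18981 and 19699 in wild type (log2 fold change 0.10, 95% interval -0.05 to 0.25). Ldha, which turns pyruvate into lactate, read 12872 and 13700 in EC-Rbpj-KO and 13859 and 14126 in wild type (log2 fold change -0.08, 95% interval -0.24 to 0.09). Pgk1, the first of the enzymes that yield ATP, read 11297 and 11715 in EC-Rbpj-KO and 10303 and 9157 in wild type (log2 fold change 0.24, adjusted p = 0.162). Log2 fold changes were 0.03 for the aldolase Aldoa, -0.04 for the triose phosphate isomerase Tpi1, -0.03 for the mutase Pgam1 and 0.09 for the pyruvate kinase Pkm. The hexokinases Hk1 and Hk2, which trap glucose in the cell, were at 0.00 and 0.24. None of these passed the test, and the 95% intervals of Hk1 (-0.51 to 0.51) and Hk2 (-0.32 to 0.81) leave room for a change of moderate size. Aldoc, below the filter, read 41 and 112 in EC-Rbpj-KO and 75 and 61 in wild type.

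Several other hypoxia genes lay just outside the threshold in EC-Rbpj-KO. Bnip3, which drives the removal of mitochondria, read 7560 and 9132 in EC-Rbpj-KO and 5978 and 5820 in wild type (log2 fold change 0.49, adjusted p = 0.0529). Egln1, the main oxygen sensor of the pathway, read 1440 and 1587 in EC-Rbpj-KO and 1098 and 921 in wild type (log2 fold change 0.59, adjusted p = 0.0578). Its dimmer probe set rose less, at 662 and 649 in EC-Rbpj-KO and 647 and 567 in wild type (log2 fold change 0.11). P4ha2, a collagen prolyl hydroxylase, read 1470 and 1502 in EC-Rbpj-KO and 1116 and 896 in wild type (log2 fold change 0.57, adjusted p = 0.0725). All 3 had groups that did not overlap. Bnip3 passed under 4 of the 18 alternatives, Egln1 under 2 and P4ha2 under 1.

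The remaining hypoxia genes were higher by smaller or more variable amounts, or were level. Ankrd37, an ankyrin repeat protein, was at a log2 fold change of 0.85 (adjusted p = 0.143), and Egln3, the hydroxylase most strongly induced by low oxygen in many cells, at 0.59 (adjusted p = 0.138). The histone demethylase Kdm3a was at 0.44, the MYC antagonist Mxi1 at 0.34 and the mitochondrial protein Higd1a at 0.33, all with both mutant arrays above both wild type arrays. A dimmer Higd1a probe set went the other way, at 327 and 282 in EC-Rbpj-KO and 439 and 357 in wild type (log2 fold change -0.38). Hif1a itself, encoding the regulated subunit, read 6450 and 5653 in EC-Rbpj-KO and 5970 and 5688 in wild type (log2 fold change 0.05, 95% interval -0.19 to 0.30). Dimmer Hif1a probe sets were at 0.35 and -0.16 with overlap, and at 0.31 without overlap (607 and 418 in EC-Rbpj-KO, 408 and 404 in wild type). Vegfa, the angiogenic growth factor and a classical HIF target, read 415 and 352 in EC-Rbpj-KO and 388 and 358 in wild type (log2 fold change 0.04, 95% interval -0.41 to 0.48). Vhl and P4ha1 were at 0.23 and 0.07. Pdk1, the kinase that shuts off pyruvate dehydrogenase, was the most uneven, at 923 and 2386 in EC-Rbpj-KO and 1929 and 1342 in wild type. Car9, a carbonic anhydrase below the filter, read 49 and 56 in EC-Rbpj-KO and 43 and 45 in wild type. The Bnip3l probe set with the highest signal, which cannot part Bnip3l from its pseudogene, read 2922 and 3769 in EC-Rbpj-KO and 2504 and 2466 in wild type.

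Counted over the list, 24 of the 29 genes had a log2 fold change above 0 in EC-Rbpj-KO (82.8%), against 46.6% of all tested genes. Both mutant arrays lay above both wild type arrays for 16 of the 29 (55.2%, against 23.3% of all) and below them for 2, Pfkp and Ldha (6.9%, against 27.5%). The unadjusted p was under 0.05 for 14 of the 29 (48.3%, against 19.9%). The median log2 fold change was 0.47 for the hypoxia genes outside glycolysis and 0.09 for glycolysis, beside -0.02 for all tested genes. The test named in the study's methods, run on each gene alone, called 5 of the 29 unadjusted (17.2%, against 12%) and 0 adjusted (against 0.00916%). On the separate mutant arrays the median of the other hypoxia genes was 0.45 and 0.58 and that of glycolysis 0.07 and 0.13.

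**Figure D4:**
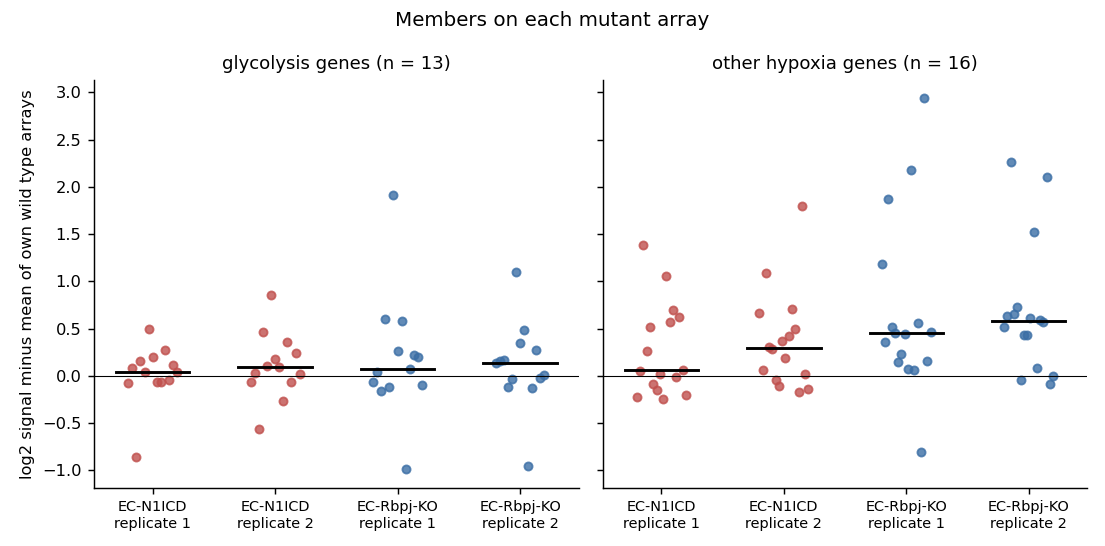
Log2 signal of each tested gene on each mutant array minus the mean of its own wild type arrays, for 13 glycolysis genes (left) and 16 other hypoxia genes (right), with the median as a bar. For the other hypoxia genes the bars sit at 0.06 and 0.30 for EC-N1ICD and at 0.45 and 0.58 for EC-Rbpj-KO. For glycolysis it stays between 0.04 and 0.13 on all 4.

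Markers of other cells moved in the same comparison. The 8 macrophage markers summed to 3076 to 4335 in EC-Rbpj-KO and 1321 to 1815 in wild type. Of the 7 tested, Csf1r, Adgre1, Cx3cr1 and Ly86 rose and Cd68 fell, but Cx3cr1 and Ly86 passed the filter only through the EC-Rbpj-KO arrays, where they are high. Endothelial markers summed to 2385 to 3478 in EC-Rbpj-KO and 1990 to 2015 in wild type, and 1 of 8 tested rose. That was Cldn5, at 1095 and 715 in EC-Rbpj-KO and 302 and 273 in wild type. Both mutant arrays lay above both wild type arrays for 5 of the 8 (against 23.3% of all tested genes). They lay below them for 1, Tek (log2 fold change -0.73, against 27.5%), and Kdr overlapped. Erythroid markers summed to 54509 to 66879 in EC-Rbpj-KO and 69162 to 71226 in wild type. Of 10 tested, 1 fell, Tfrc (-1.97). Klf1 (-0.95), Alas2 (-0.65) and Gata1 (-0.41) were lower without passing the test. Visceral endoderm markers summed to 163622 to 174190 in EC-Rbpj-KO and 174785 to 187525 in wild type, and 2 of 11 fell, the endocytic receptors Lrp2 (log2 fold change -1.16, adjusted p = 0.0156) and Cubn (-0.34, adjusted p = 0.0324). No marker was at 0 on any array. The part of these shifts in the changes of Ppp1r3c, Ddit4, Ndrg1, Pfkfb3 and Pfkp was not tested. The ratio of 3' to 5' Gapdh signal, a sign of RNA quality, was 4.64 and 3.45 in EC-Rbpj-KO and 3.17 and 3.51 in wild type, highest on the mutant array that also had the higher Ppp1r3c, Ndrg1 and Pfkfb3 signals, replicate 1. In both models the name of replicate 1 begins with another number than those of the set's remaining arrays, for which no meaning is given, and in EC-Rbpj-KO the median erythroid marker lay at -0.94 there and at -0.04 in replicate 2, relative to wild type. Without replicate 1, Ppp1r3c, Ddit4, Ndrg1 and Pfkp still passed the test, Pfkfb3 did not, and Bnip3 did (adjusted p = 0.0324).

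In EC-N1ICD yolk sac, 0 of the 29 genes changed, where 0.596% of all tested genes did (limma, adjusted p under 0.05). At an unadjusted p under 0.05 there were 7 of the 29 (24.1%, against 12% of all), 6 higher and 1 lower. The methods' test gave 4 unadjusted (13.8%, against 8.6%) and 0 adjusted. Both mutant arrays lay above both wild type arrays for 10 genes (34.5%, against 23.7% of all) and below them for 5 (17.2%, against 18.9%).

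Of the genes that rose in EC-Rbpj-KO, 3 were among the 6 higher ones. Ddit4 read 255 and 209 in EC-N1ICD and 64 and 150 in wild type (log2 fold change 1.24, 95% interval 0.44 to 2.03, adjusted p = 0.178). Ppp1r3c read 89 and 202 in EC-N1ICD and 59 and 57 in wild type (log2 fold change 1.21, 95% interval 0.38 to 2.04, adjusted p = 0.204). Ndrg1 read 523 and 337 in EC-N1ICD and 264 and 240 in wild type (log2 fold change 0.74, 95% interval 0.20 to 1.28, adjusted p = 0.230). In each the groups did not overlap on the probe set used. The spread was wide between the mutant arrays for Ppp1r3c and Ndrg1 and between the wild type arrays for Ddit4. Dimmer Ndrg1 probe sets were at 0.76, 0.63 and 0.99 without overlap, and another at -0.01 with overlap. The dim second Ppp1r3c probe set was at -0.23 with overlap. Pfkfb3 read 91 and 117 in EC-N1ICD and 95 and 44 in wild type, with overlap.

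Both collagen prolyl hydroxylases were also among them. P4ha2 read 1304 and 1130 in EC-N1ICD and 851 and 760 in wild type (log2 fold change 0.59, adjusted p = 0.159, the smallest of the list in this model). P4ha1 read 816 and 902 in EC-N1ICD and 595 and 511 in wild type (log2 fold change 0.64, adjusted p = 0.195). These subunits hydroxylate prolines so that collagen chains can fold. The collagen genes among the mesenchyme markers, Col1a1 and Col3a1, were not higher. Other collagen genes were not read here, and the study lists Col8a1 and Col14a1 as upregulated in EC-N1ICD. Col1a1 read 1496 and 1489 in EC-N1ICD and 2027 and 1740 in wild type (log2 fold change -0.33, adjusted p = 0.394), and Col3a1 was at -0.03. The mesenchyme and smooth muscle markers as a whole summed to 31739 to 32548 in EC-N1ICD and 23484 to 24608 in wild type, with 2 of 7 tested risen (Tagln and Myl9), and most of the higher sum was the smooth muscle actin Acta2, at 14640 and 13687 in EC-N1ICD and 7480 and 8684 in wild type. Their part in the P4ha1 and P4ha2 values was not tested.

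Glycolysis enzymes in EC-N1ICD held the only gene that was lower at an unadjusted p. Hk1 read 246 and 302 in EC-N1ICD and 538 and 370 in wild type (log2 fold change -0.71, adjusted p = 0.221). A dim second Hk1 probe set overlapped, at 28 and 35 in EC-N1ICD and 57 and 26 in wild type (log2 fold change -0.30). Hk1 is the hexokinase of mature and developing red cells among others. The erythroid markers summed to 48577 to 82864 in EC-N1ICD and 95776 to 101682 in wild type, with 1 of 10 fallen (Tfrc). The median erythroid marker lay at -2.00 in EC-N1ICD replicate 1 and at -0.40 in replicate 2, relative to wild type, and the part of that shift in the Hk1 values was not tested. Pgam1 was the other glycolysis gene, at 4804 and 5087 in EC-N1ICD and 4222 and 3755 in wild type (log2 fold change 0.31). The rest of the class lay between log2 fold changes of -0.16 (Pfkp) and 0.67 (Pfkfb3), with Gapdh at 0.06, Ldha at 0.07, Pkm at 0.18 and Pgk1 at -0.05. Dimmer probe sets of Gapdh were at 0.17 and 0.31, and those of Pgk1 at 0.25 and 0.04. All but the last were higher without overlap. The class median was 0.06, against 0.01 for all tested genes, and it was -0.02 when arrays were centred on their medians.

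None of the upstream genes passed the test in EC-N1ICD. Hif1a read 3559 and 3664 in EC-N1ICD and 3955 and 3604 in wild type (log2 fold change -0.06, 95% interval -0.31 to 0.18), and Vegfa 313 and 304 in EC-N1ICD and 357 and 251 in wild type (log2 fold change 0.04). Dimmer probe sets of both were higher without overlap, 2 of the other 3 of Hif1a at 0.51 (222 and 299 in EC-N1ICD, 183 and 180 in wild type) and 0.41, and the second of Vegfa at 0.39. Egln1 and Egln3 were at 0.28 and 0.40, both without overlap on the probe sets used, and Vhl at -0.17. The dimmer Egln1 probe set was at 0.30 without overlap, and those of Egln3 (0.44) and Vhl (0.14) overlapped. Bnip3 was at 0.06, Higd1a at -0.13, Kdm3a at 0.20, Ankrd37 at 0.22, Mxi1 at -0.03 and Pdk1 at -0.09. The median of the 16 hypoxia genes outside glycolysis was 0.21, and 0.06 without EC-N1ICD replicate 2. Aldoc read 38 and 45 in EC-N1ICD and 29 and 23 in wild type, and Car9 40 and 46 in EC-N1ICD and 49 and 41 in wild type, both below the filter.

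The change in EC-N1ICD minus the change in EC-Rbpj-KO was tested for each gene, and 0 of the 29 passed, where 0.266% of all genes did (limma). At an unadjusted p under 0.05 there were 6 of the 29 (20.7%, against 10.8%). Pfkp had the smallest p, with a difference of 0.81 (95% interval 0.34 to 1.28, adjusted p = 0.205). Ndrg1 had a difference of -1.12 (95% interval -1.88 to -0.35, adjusted p = 0.278) and Ppp1r3c of -1.31 (95% interval -2.48 to -0.13, adjusted p = 0.402). The others were Pgk1, Bnip3 and Higd1a. On the probe sets used, these were all lower in EC-N1ICD than in EC-Rbpj-KO, relative to wild type. For Pgk1 and Higd1a the direction depended on the probe set. A dimmer Pgk1 probe set was at 0.25 for EC-N1ICD against 0.05 for EC-Rbpj-KO, and another at 0.04 against 0.22. In the same order, the dimmer Higd1a probe sets were at 0.34 against -0.38 and at 0.95 against 0.06. Both had overlapping groups in EC-N1ICD. For Ddit4 the difference was -0.83 (95% interval -1.95 to 0.30) and for Pfkfb3 -0.83 (95% interval -2.03 to 0.36). The changes seen in EC-Rbpj-KO are thus not shown to differ from those in EC-N1ICD at this number of arrays, nor to be alike.

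Neighbouring pathway genes were read from further lists. None of 11 other genes of the HIF system, 8 other isoenzymes of glycolysis and pyruvate entry, 24 other HIF target genes or 6 genes of the pentose phosphate pathway changed in either model (limma). At an unadjusted p under 0.05 these lists held 0, 2, 4 and 1 genes in EC-Rbpj-KO and 2, 1, 4 and 0 in EC-N1ICD, where 19.9% and 12% of all tested genes passed it. Among the isoenzymes counted in EC-Rbpj-KO, Pgam2 passed the filter only through the EC-Rbpj-KO arrays. It is high there, at 160 and 132, with 70 and 75 in wild type. In EC-Rbpj-KO the 24 other HIF targets had a median of 0.02 on the log2 scale, beside the 0.47 of the 16 listed hypoxia genes outside glycolysis.

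At the entry of pyruvate into the mitochondria, 1 of 7 genes of the pyruvate dehydrogenase complex fell in EC-Rbpj-KO, where 2.96% of all tested genes did. Dld, its dihydrolipoamide dehydrogenase, read 2512 and 2271 in EC-Rbpj-KO and 3444 and 3410 in wild type (log2 fold change -0.52, adjusted p = 0.0399). This call was lost in 10 of 18 alternatives, among them those without either wild type array of the set (adjusted p = 0.186 and 0.221), EC-Rbpj-KO replicate 2 (0.121) or either EC-N1ICD array (0.0720 and 0.0711). In 6 of the 7 genes both mutant arrays lay below both wild type arrays, as in 27.5% of all tested genes, Pdhx at a log2 fold change of -0.79 (adjusted p = 0.0510) and Pdhb at -0.44 (adjusted p = 0.0574), and the median was -0.44. In EC-N1ICD none of the 7 changed and the median was -0.06.

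In the opposing pathway, Fbp2 fell in both models. Fbp2 is a fructose bisphosphatase, the enzyme that reverses the phosphofructokinase step. It read 385 and 321 in EC-N1ICD and 1590 and 972 in wild type (log2 fold change -1.82, adjusted p = 0.00520), and 553 and 581 in EC-Rbpj-KO and 1375 and 1310 in wild type (log2 fold change -1.24, adjusted p = 0.00875). All 4 mutant arrays were below all 4 wild type arrays, and the difference between the models missed the threshold (-0.58, 95% interval -1.25 to 0.10, adjusted p = 0.547). Embryo sex follows genotype in the EC-N1ICD set, so a sex term in the fit is estimated from the EC-Rbpj-KO arrays alone and cannot separate the 2 there. With embryo sex in the fit the EC-N1ICD value was -1.75 (adjusted p = 0.124), and without either wild type array of its set the EC-Rbpj-KO value missed the threshold (adjusted p = 0.0615 and 0.0590). Its relative Fbp1, named after its values were seen, lay below the filter and read 103 and 77 in EC-Rbpj-KO and 19 and 18 in wild type (log2 fold change 2.27, adjusted p = 0.00284 in the fit without a filter).

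**Figure D5:**
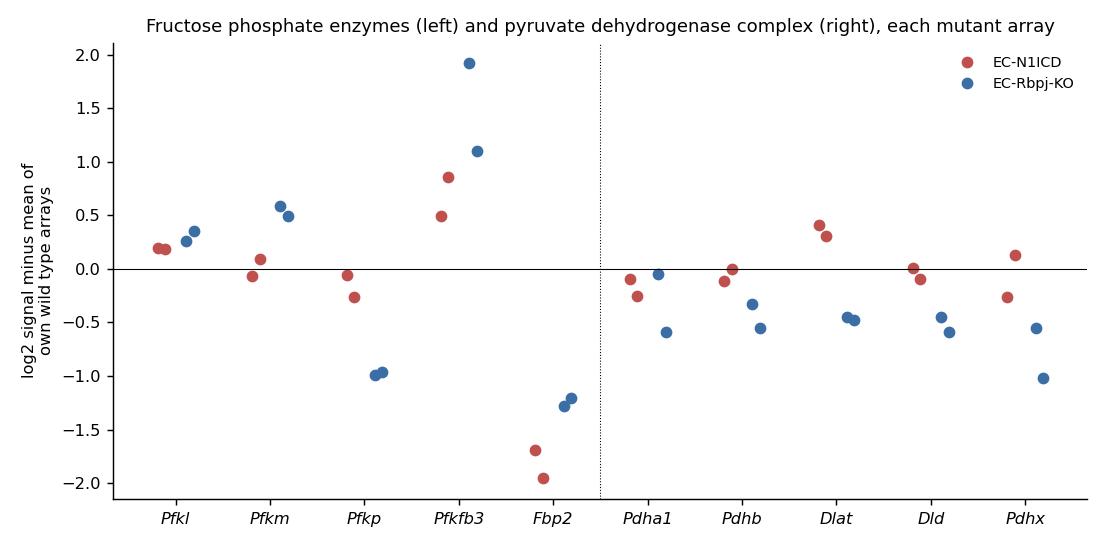
Log2 signal on each mutant array minus the mean of its own wild type arrays for genes of the fructose phosphate step (left of the dotted line) and of the pyruvate dehydrogenase complex (right), EC-N1ICD in red and EC-Rbpj-KO in blue. Pfkp lies near -0.97 in EC-Rbpj-KO while Pfkl and Pfkm lie above 0, Fbp2 is low on all 4 arrays, and the 5 subunits of the complex lie below 0 on both EC-Rbpj-KO arrays.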

How the data were processed

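RNA of E9.5 yolk sac was measured on 8 single-channel Affymetrix arrays. The authors deposited intensity values, 1 per probe set and array, made with MAS5 as the submitters' processing notes state. Its version and scaling are not given in the sources used here, and the signals were used without further scaling. Probe sets were named from the platform annotation (34958 name 1 gene, 932 several, 9211 none), and only those naming 1 gene were used. The dimmest 40 percent of genes by mean signal were not tested, and the lowest mean kept was 68. limma 3.58.1 in R 4.3.3 was fitted to the log2 signals of all 8 arrays (4 groups, contrasts within a set, eBayes with trend, 4 residual and 7.37 prior degrees of freedom). Two-sided p-values were adjusted over 10913 genes (Benjamini-Hochberg, threshold 0.05). An exact permutation test of 2 arrays against 2 cannot give a p under 0.333 and was not used. Precision is limited by the 2 arrays per group, and dim signals by background. The members and lists were chosen with earlier results of these data known. All listed genes are accounted for, genes that changed are given on every array, and up to 5 changed genes of each further list are named. Motifs were counted in the 250 bases before the starts in RefSeq's GRCm38.p6 table, both strands, overlaps included. Alternatives were no filter or a filter at the 60th percentile, 16 added before log2, median centring, quantile normalization, the mean of all probe sets, each set alone, the test named in the methods, embryo sex in the fit, and each array left out. The steps were tested on simulated data.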

Additional observations from a re-analysis of the deposited data

How the results depend on the processing

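In EC-Rbpj-KO the 5 calls became 3 with a filter at the 60th percentile, which removed Ddit4, Ppp1r3c and Pfkfb3 from the test and added Egln1, and 0 with the methods' test after adjustment. With an array left out they ranged from 2 to 6, lowest without wild type replicate 1 of that set, where Ppp1r3c and Ndrg1 remained. Ndrg1 and Ppp1r3c were otherwise called under every alternative that tested them except the methods' adjusted test. In EC-N1ICD the count of 0 became 4 with the methods' test before adjustment (Aldoa lower, Egln1, P4ha1 and P4ha2 higher) and stayed 0 under the other alternatives. For Aldoa the direction depended on the probe set. The one used was at a log2 fold change of -0.07 and a dimmer one at -0.08, both lower without overlap. Other dimmer ones, at 0.12, 0.08 and 0.18, were higher without overlap. The count of genes whose change differed between the models stayed 0.

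The median log2 fold change of the glycolysis genes in EC-N1ICD was -0.0204 with median centring and 0.000302 with embryo sex in the fit, and 0.04 to 0.09 with an array left out. In EC-Rbpj-KO it was 0.0211 with median centring, and 0.07 to 0.13 with an array left out. For the other hypoxia genes in EC-Rbpj-KO it was 0.34 with the 60th percentile filter, 0.58 with sex in the fit, which equals leaving out EC-Rbpj-KO replicate 1, and 0.38 to 0.58 with an array left out, and in EC-N1ICD, where it was 0.21, it was 0.05 with that filter, 0.35 with sex in the fit and 0.06 to 0.30 with an array left out (0.06 without EC-N1ICD replicate 2). No call of a named gene reversed.

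Over all genes, EC-N1ICD gave 65 calls (41 higher, 24 lower), 92 with median centring (43 higher, 49 lower), 118 with quantile normalization, 103 with its set alone, 15 with sex in the fit, 27 with the stricter filter, and 7 to 140 with an array left out. EC-Rbpj-KO gave 541 (218 higher, 323 lower), 660 with quantile normalization (357 higher, 303 lower), 266 with its set alone and 147 to 628 with an array left out. The methods' test after adjustment gave 0 and 1, and before it 939 and 1313. The causes were not tested. No paired analysis was possible because the replicate numbers follow the order of the samples. A number shared in the sample names links only replicate 2 of each mutant with both wild type arrays of its set. The 2 arrays per group limit the precision.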
